A study of Mus musculus with 8 samples.

Results

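The genes described here are 10 immediate early and AP-1 genes of mouse hepatocytes: Fos, Fosb, Fosl1, Fosl2, Jun, Junb, Jund, Egr1, Atf3 and Ier3. They were taken by symbol from a table of 34945 named genes, and all 10 were present. RNA was sequenced from 4 siCasp8 cultures and 4 Scr cultures of AML12, an established line of mouse hepatocytes whose source animal was transgenic for human TGF-alpha, a growth factor that signals through Egfr. The siCasp8 cultures had received siRNAs against Casp8, which encodes the protease that starts killing by death receptors, and the Scr cultures a scrambled siRNA. Both kinds of siRNA were used at 40 nM with the same lipid reagent for 48 hours, in medium with serum. The genotype labels read Casp8 knockdown for siCasp8 and WT for Scr. The series was made to look for secreted genes that respond to the silencing.

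AP-1 is a dimer of basic leucine zipper (bZIP) proteins. Jun proteins pair with one another or with Fos proteins, while Fos proteins need a Jun partner to bind DNA, and Atf3 is a related bZIP factor that can pair with Jun proteins. Many of these genes are called immediate early because growth factors, serum and stress switch them on through kinases and factors already present in the cell, with no new protein made first. In liver the Fos and Jun genes are known for their rise at the start of regeneration, and Egr1, a zinc finger factor, is a classic readout of ERK signalling.

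Egr1 rose, and Fosl2, Jund, Atf3 and Ier3 fell, while Fos, Fosb, Fosl1, Jun and Junb did not pass the test. The 5 of 10 genes called stand beside 40.2% of all tested genes called in either direction. The 1 of 10 genes higher in siCasp8 stands beside 19.4% of all tested genes called higher, and the 4 of 10 lower stand beside 20.8% called lower. A gene was called when limma's moderated test on log2(value + 1), adjusted by Benjamini-Hochberg over 14154 tested genes, gave a p under 0.05. All 10 genes had a mean value of at least 10 and were tested. The groups did not overlap for 5 of the 10 genes, against 37.5% of all tested genes. For 1 of the 10 every siCasp8 library was above every Scr library (18% of all tested genes), and for 4 every one was below (19.5%). The median log2 fold change of the 10 genes was -0.26, against 0.0025 for all tested genes. The share of the 10 genes called was near that of all genes, so the count is no result about the set, and what follows is about single genes. After scaling to equal upper quartiles 72.9% of all calls were higher in siCasp8, against 48.1% as deposited, and the median over all genes shifted by 0.10.

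Casp8 itself had values of 1374, 1431, 1627 and 1490 in siCasp8 replicates 1 to 4 and of 3936, 3995, 4134 and 3825 in Scr replicates 1 to 4. The siCasp8 mean was 37.3% of the Scr mean (log2 fold change -1.43, limma adjusted p = 5.94e-09). Values are the deposited normalized estimates per gene, and depth estimated from the value of 1 read was 50.5 to 57.1 M reads in siCasp8 libraries and 30.7 to 51.8 M reads in Scr libraries (exact two-sided permutation p = 0.0571). Scr replicate 4, at 51.8 M reads, was the Scr library nearest in depth to the siCasp8 libraries. Hepatocyte markers were present, with Krt18 the most abundant of the 14 at 42659 in siCasp8 and 44957 in Scr, but Cps1, a urea cycle gene of the adult liver, was at 1.64 in siCasp8 and 0.963 in Scr, and Alb, the albumin gene, was at 3626 in siCasp8 and 86.4 in Scr. Of the markers of other cell types, the 9 of cholangiocytes summed to 129235 to 136586 in siCasp8 and 114622 to 123305 in Scr, mostly from Spp1, and Epcam among them was at 0.219 in siCasp8 and 0 in Scr. The 10 stellate cell and fibroblast markers summed to 111 to 197 in siCasp8 and 128 to 188 in Scr, and the 8 endothelial markers to 211 to 336 in siCasp8 and 220 to 561 in Scr. Cdh5 and Lyve1 of endothelium and Adgre1 and Clec4f of macrophages were at 0 in all 8 libraries. The 8 macrophage and leukocyte markers summed to 2199 to 2361 in siCasp8 and 2831 to 3036 in Scr, mostly from Cd14. The part of these markers in the results was not tested.

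The promoters of Fosl2, Atf3 and Ier3, which fell, and of Fos and Jun, the founders of the family, are shown to let their control regions be compared. Each is the RefSeq window on GRCm38.p6 from 250 bases before to 50 after the annotated start, read 5′ to 3′ on the gene's own strand. Of the 10 genes, 8 had such a window. Egr1 and Fosl1 had none, so the member that rose is not among those compared. Capitals mark matches on either strand to the AP-1 site TGANTCA, the cyclic AMP response element (CRE) core TGACGT, the Jun-type site TGACATCA, the EGR site GCGNGGGCG, TATAAA, the CArG box or the NF-kB site.
Fosl2, chr5:32136222-32136521, plus strand: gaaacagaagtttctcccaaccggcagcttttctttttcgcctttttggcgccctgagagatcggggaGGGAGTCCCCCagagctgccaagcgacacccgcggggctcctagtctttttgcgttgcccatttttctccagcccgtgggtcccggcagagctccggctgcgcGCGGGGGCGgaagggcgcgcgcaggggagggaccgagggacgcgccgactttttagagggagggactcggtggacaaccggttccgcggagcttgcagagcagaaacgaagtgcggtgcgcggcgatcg
Atf3, chr1:191183284-191183583, minus strand: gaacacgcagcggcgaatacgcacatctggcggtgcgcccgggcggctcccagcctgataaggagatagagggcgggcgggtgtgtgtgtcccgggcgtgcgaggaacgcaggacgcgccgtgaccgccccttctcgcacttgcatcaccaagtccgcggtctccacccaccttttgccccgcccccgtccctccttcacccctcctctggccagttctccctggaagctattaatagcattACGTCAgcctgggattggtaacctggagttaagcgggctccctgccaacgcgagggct
Ier3, chr17:35821463-35821762, plus strand: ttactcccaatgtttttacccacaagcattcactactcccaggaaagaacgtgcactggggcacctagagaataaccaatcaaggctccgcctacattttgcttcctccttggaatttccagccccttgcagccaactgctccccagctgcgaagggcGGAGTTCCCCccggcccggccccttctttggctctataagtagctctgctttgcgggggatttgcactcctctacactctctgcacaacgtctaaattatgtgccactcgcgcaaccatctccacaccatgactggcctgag
Fos, chr12:85473640-85473939, plus strand: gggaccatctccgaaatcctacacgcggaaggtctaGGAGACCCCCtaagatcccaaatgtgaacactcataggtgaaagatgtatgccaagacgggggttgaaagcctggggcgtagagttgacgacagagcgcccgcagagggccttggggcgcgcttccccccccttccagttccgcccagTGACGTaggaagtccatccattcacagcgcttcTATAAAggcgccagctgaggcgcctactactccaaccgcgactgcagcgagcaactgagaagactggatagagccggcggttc
Jun, chr4:95052173-95052472, minus strand: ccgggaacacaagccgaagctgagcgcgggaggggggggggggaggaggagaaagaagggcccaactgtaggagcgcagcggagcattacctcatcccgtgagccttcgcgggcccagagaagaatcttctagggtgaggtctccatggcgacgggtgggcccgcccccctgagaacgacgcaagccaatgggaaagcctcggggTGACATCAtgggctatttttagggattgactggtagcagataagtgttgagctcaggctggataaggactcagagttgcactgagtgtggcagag

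The NF-kB site matched in the windows of Fosl2 and Ier3, which fell, and of Fos and Fosb, which were not called, but not in those of Atf3 and Jund, which also fell. The window of Jund held none of the motifs, and that of Fosb also held an EGR site. The Jund window, chr8:70697489-70697788 on the plus strand, ends before the gene's start in the GENCODE annotation, at 70698949. Its lack of matches therefore says nothing of the bases around that start. The Atf3 window lies inside the gene, whose GENCODE start on the minus strand is at 191218039. Likewise the Fosl2 window begins after that gene's GENCODE start, at 32135801. The bases around these 2 starts were not searched. Fosl2 held an EGR site from -79 to -71 and 2 overlapping NF-kB matches between -182 and -172. Atf3 held the CRE core on the opposite strand from -8 to -3, and Ier3 held an NF-kB match from -92 to -83. Fos held the CRE core from -66 to -61, an NF-kB match from -214 to -205 and TATAAA from -33 to -28, and Jun held the Jun-type site from -45 to -38. Neither the AP-1 site nor the CArG box matched in these 5 windows, which says only that those letters are not in them. Of all 32851 windows of the table, 7.81% held the AP-1 site, 7.51% the CRE core, 3.62% the Jun-type site, 5.55% the EGR site, 8.46% the NF-kB site, 1.63% the CArG box and 13.6% TATAAA.

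Egr1, which encodes the zinc finger factor named for early growth response, was the member that rose. Its values were 5031, 5456, 5192 and 5614 in siCasp8 replicates 1 to 4 and 3094, 3397, 3053 and 3372 in Scr replicates 1 to 4. Every siCasp8 library was above every Scr library. The mean was 5323 ± 262 in siCasp8 and 3229 ± 180 in Scr (SD, n = 4 each), a log2 fold change of 0.72 (SE 0.0486, 95% interval 0.62 to 0.83, limma adjusted p = 3.31e-07). Fitted with estimated depth as a covariate, Egr1 differed by 0.65 on the log2 scale (limma adjusted p = 0.000232). In bulk RNA, more Egr1 transcript per cell and more cells that express it cannot be told apart, and the same holds for every gene here.

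Ier3, which encodes a short-lived protein that is known to affect cell survival and ERK signalling, went the other way. Its values were 3812, 3840, 3816 and 4144 in siCasp8 and 5300, 5526, 4965 and 5374 in Scr, with no overlap. The mean of 3903 ± 161 in siCasp8 and 5291 ± 237 in Scr (SD, n = 4 each) gave a log2 fold change of -0.44 (SE 0.0431, limma adjusted p = 6.62e-06). The log2 ratio of Egr1 to Ier3 values within a library, which does not depend on how libraries are scaled but is not per length, was 0.40 to 0.51 in siCasp8 and -0.78 to -0.67 in Scr. Its mean of 0.45 ± 0.04 in siCasp8 and -0.71 ± 0.04 in Scr (SD, n = 4 each) differed by 1.16. The groups of both genes lie apart in opposite directions, so the lack of overlap in their ratio was fixed.

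**Figure D1:**
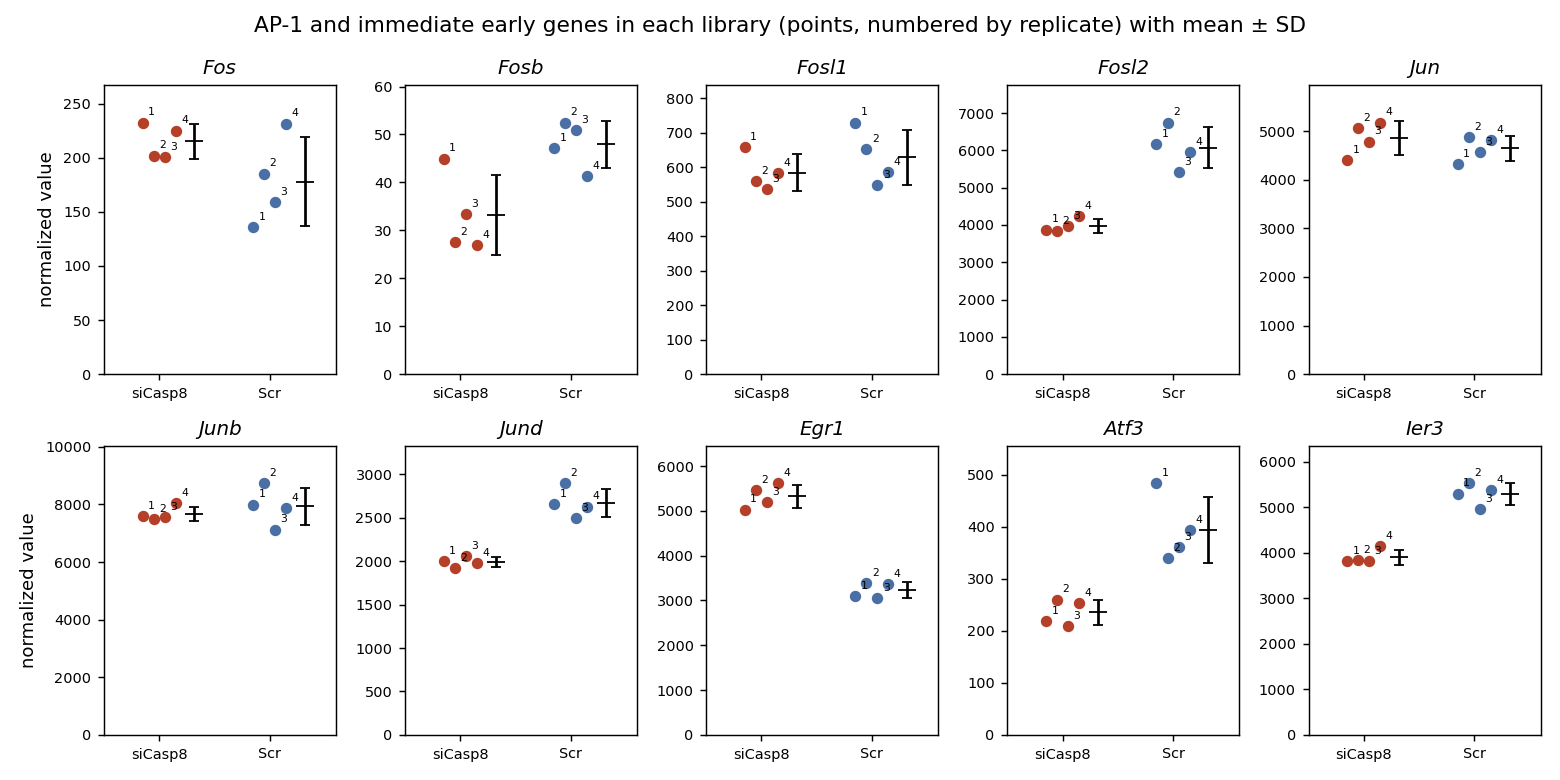
Normalized value (vertical axes, from 0) of each of the 10 genes in the 4 siCasp8 libraries (red, left) and the 4 Scr libraries (blue, right). Points are numbered by replicate, and bars are the mean ± SD. Egr1 lies higher in all siCasp8 libraries, Fosl2, Jund, Atf3 and Ier3 lie lower in all of them, and the groups of the other 5 genes overlap.

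Among the Fos family, Fosl2 fell and the others did not pass the test. Fosl2 encodes Fra-2, a Fos protein without the strong activation domain of Fos itself. Its values were 3876, 3829, 3975 and 4243 in siCasp8 and 6160, 6745, 5411 and 5965 in Scr. The highest siCasp8 library was still below the lowest Scr library. The mean of 3981 ± 185 in siCasp8 was 65.6% of the Scr mean of 6070 ± 551 (SD, n = 4 each), a log2 fold change of -0.61 (SE 0.0596, limma adjusted p = 6.7e-06).

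Fos, the gene that gives the family its name, had values of 232, 202, 201 and 225 in siCasp8 and 136, 185, 159 and 232 in Scr. The siCasp8 libraries were close together, and Scr replicate 4 lay among them while the other 3 Scr libraries lay below. The log2 fold change was 0.30 (SE 0.146, 95% interval -0.02 to 0.61, limma adjusted p = 0.127). Without Scr replicate 4 it was 0.43 (limma adjusted p = 0.0192), and with the depth covariate it was -0.05 (limma adjusted p = 0.895), so both the call and the direction of Fos changed with these choices. The part of depth in the values of Fos was not tested beyond this. Across the Scr libraries the coefficient of variation of Fos was 23.1%, the highest of the 10 genes in that group, against 7.46% in siCasp8.

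Fosb, a close relative of Fos, was the lowest gene of the set, at 32.7 to 51.4 estimated reads per library. Its values were 45.0, 27.6, 33.5 and 26.8 in siCasp8 and 47.1, 52.5, 50.9 and 41.3 in Scr. Of the siCasp8 libraries, 3 lay below all Scr libraries and replicate 1 lay among them. The log2 fold change was -0.54 (SE 0.208, 95% interval -0.99 to -0.09), with a limma adjusted p of 0.056. It was called without siCasp8 replicate 1 (log2 fold change -0.69, limma adjusted p = 0.0217), and also with all 8 libraries under quantile normalization (-0.67, limma adjusted p = 0.0212) and with no trend in the prior variance (limma adjusted p = 0.0376). Fitted with depth it differed by -0.20 on the log2 scale (limma adjusted p = 0.736).

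Fosl1 encodes Fra-1, the other Fos protein without a strong activation domain. Its values were 659, 560, 536 and 582 in siCasp8 and 729, 653, 548 and 585 in Scr, and the groups overlapped. The log2 fold change was -0.10 (SE 0.0941, 95% interval -0.31 to 0.10, limma adjusted p = 0.425), and its sign was the opposite with the depth covariate (0.09). In the annotation Fosl1 shares its locus with the coding gene Ccdc85b on the opposite strand, and reads from the shared part cannot be told apart without strand.

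In the Jun family the picture was similar, with 1 gene lower and no call for the others. Jund encodes the Jun protein that most cells make at rest. Its values were 1998, 1923, 2059 and 1983 in siCasp8 and 2659, 2897, 2499 and 2630 in Scr, with no overlap. The mean of 1991 ± 55.7 in siCasp8 was 74.5% of the Scr mean of 2671 ± 166 (SD, n = 4 each), a log2 fold change of -0.42 (SE 0.0485, limma adjusted p = 2.38e-05).

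Jun, the usual partner of Fos, had values of 4397, 5065, 4786 and 5176 in siCasp8 and 4322, 4873, 4572 and 4810 in Scr. Junb, a weaker activator than Jun in many settings, had values of 7596, 7493, 7570 and 8037 in siCasp8 and 7992, 8729, 7124 and 7867 in Scr. The groups of both genes overlapped. The log2 fold change was 0.06 for Jun (95% interval -0.06 to 0.18, limma adjusted p = 0.393) and -0.04 for Junb (95% interval -0.16 to 0.07, limma adjusted p = 0.554). In this fit both intervals end short of the -0.42 of Jund. After upper quartile scaling Jun was called higher (0.16, limma adjusted p = 0.0422) and the sign of Junb turned (0.06). In the annotation Jun and Jund each overlap an antisense gene and Junb overlaps Prdx2 on the opposite strand.

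Atf3, which encodes a stress-induced bZIP factor that often represses, showed the largest fall of the set. Its values were 219, 260, 210 and 253 in siCasp8 and 484, 340, 361 and 394 in Scr, with no overlap. The mean of 236 ± 24.8 in siCasp8 was 59.7% of the Scr mean of 395 ± 63.4 (SD, n = 4 each), a log2 fold change of -0.73 (SE 0.117, 95% interval -0.99 to -0.48, limma adjusted p = 0.000312). Scr replicate 1 was the highest library, and without it the log2 fold change was -0.63 (limma adjusted p = 0.000653). Relative to Scr replicate 4 alone, the siCasp8 mean of Atf3 differed by -0.74, that of Fosl2 by -0.58, that of Ier3 by -0.46, that of Jund by -0.40 and that of Egr1 by 0.66 on the same scale. Since the groups of these 5 genes do not overlap, the sign of these differences was fixed, and only their size is new.

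**Figure D2:**
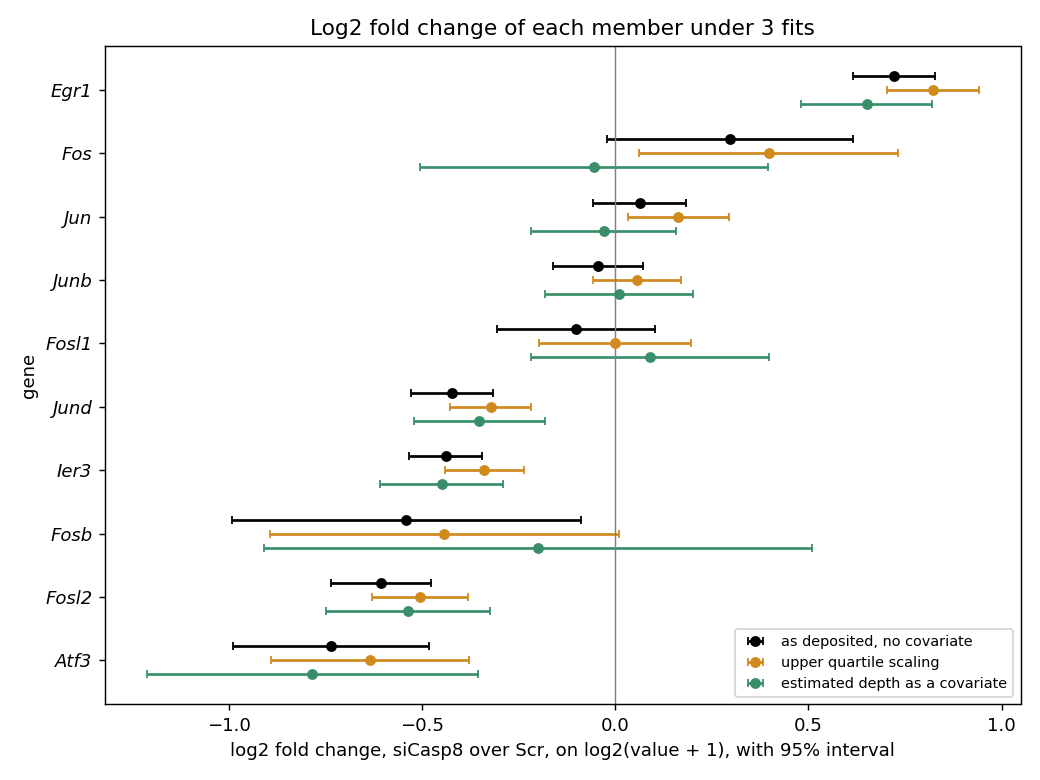
Log2 fold change of siCasp8 over Scr (horizontal axis, with 95% interval) for the 10 genes, from the values as deposited (black), after upper quartile scaling (orange) and with estimated depth as a covariate (green). Egr1 (0.72) stays above 0 and Jund, Ier3, Fosl2 and Atf3 stay below 0 in all 3 fits, while Fos, Jun, Junb and Fosl1 change sign in at least 1 of them.

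Set per kilobase of the longest annotated transcript, Ier3 and Junb were the highest of the 10 genes in both groups. In Scr the level per kilobase of Ier3 was 4678 ± 209 and that of Junb 4383 ± 363 (SD, n = 4 each), and their ranges overlapped. In siCasp8 Junb, at 4242 ± 136, was above Ier3, at 3451 ± 143, with no overlap. Below them in Scr stood Jund at 1602 ± 99.4 and Jun at 1456 ± 78.7, whose ranges overlapped, then Fosl2 at 929 ± 84.3 and Egr1 at 720 ± 40.2, whose ranges did not. In siCasp8 the order was Jun at 1523 ± 109, then Jund at 1194 ± 33.4 and Egr1 at 1187 ± 58.3, which could not be told apart, then Fosl2 at 609 ± 28.3. With this length Egr1 therefore stood above Fosl2 in siCasp8 and below it in Scr. The lowest levels per kilobase were those of Fosl1, at 313 in siCasp8 and 337 in Scr, and of Atf3, at 119 in siCasp8 and 199 in Scr. Fos followed at 102 in siCasp8 and 84.4 in Scr, and Fosb was last at 8.78 in siCasp8 and 12.7 in Scr. With the median length of coding transcripts in place of the longest, Egr1 stood at 1416 in siCasp8, above Jund, and at 859 in Scr, and Fosl1 at 526 in siCasp8 and 566 in Scr. The Scr range of Egr1 with that length, 812 to 903, overlapped that of Fosl2, 828 to 1032.

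Fosl2 held the highest share of the Fos family's summed level per kilobase in both groups. With the longest transcript as length, this share was 59.0% ± 2.42 in siCasp8 and 68.1% ± 1.14 in Scr (SD, n = 4 each). Fosl1 held 30.3% ± 1.97 in siCasp8 and 24.7% ± 2.04 in Scr, and Fos held 9.87% ± 0.343 in siCasp8 and 6.22% ± 1.48 in Scr. Fosb stayed at or under 1.11% in every library. With the median length of coding transcripts the share of Fosl2 was 48.9% ± 2.53 in siCasp8 and 58.3% ± 1.54 in Scr, and that of Fosl1 was 42.2% ± 2.25 in siCasp8 and 35.5% ± 2.49 in Scr (SD, n = 4 each). In the Jun family Junb held 61.0% ± 0.807 in siCasp8 and 58.9% ± 1.2 in Scr, and Jund held 17.2% ± 0.706 in siCasp8 and 21.5% ± 0.256 in Scr. The shares of Fosl2, Fosl1, Fos, Jund and Junb did not overlap between the groups, and those of Jun, at 20.3% to 23.1% in siCasp8 and 18.4% to 20.9% in Scr, did. Shares within a library add up to a fixed total, so a lower share of Fosl2 or Jund by itself raises those of its relatives. Fosl1, Junb and Fos were not called on their own values (log2 fold changes of -0.10, -0.04 and 0.30).

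Whether relatives moved apart was tested on log2 ratios within libraries for 12 pairs, with exact two-sided permutation tests over the 70 arrangements of the libraries. The smallest p these allow is 0.0286. It was reached by 6 pairs: Fos/Fosl2, Fosl1/Fosl2, Jun/Jund, Junb/Jund, Egr1/Ier3 and Atf3/Jun. Each of these 6 holds at least 1 gene already called on its own, so their tests are not separate from those calls. The groups of Egr1 and of Ier3 lie apart in opposite directions, so the separation of Egr1/Ier3 was fixed, and only its size is new. Adjusted over the 12 pairs the p of these 6 was 0.0571, so no pair passed 0.05. Whether a pair can pass turns on how many of the 12 reach the smallest p, so this tells nothing of a single pair. The groups did not overlap for any of the 6, which is the same fact as their reaching the smallest p. Among these 6 pairs the difference was largest for Egr1/Ier3 (1.16), followed by Fos/Fosl2 (0.90), Atf3/Jun (-0.80), Fosl1/Fosl2 (0.50), Jun/Jund (0.49) and Junb/Jund (0.38). In Scr the ratio Fos/Fosl2 was -4.68 in replicate 4, the deepest Scr library, and -5.49 to -5.08 in the others. The part of depth in this ratio was not tested. Fos/Fosb differed by 0.84, with groups that overlapped (exact permutation p = 0.0571, adjusted 0.0762). Junb/Jund was at 1.88 to 2.02 in siCasp8 and 1.51 to 1.59 in Scr. Fosb/Fosl2 (difference 0.07, exact permutation p = 0.771) and Jun/Junb (0.11, exact permutation p = 0.2) did not separate.

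**Figure D3:**
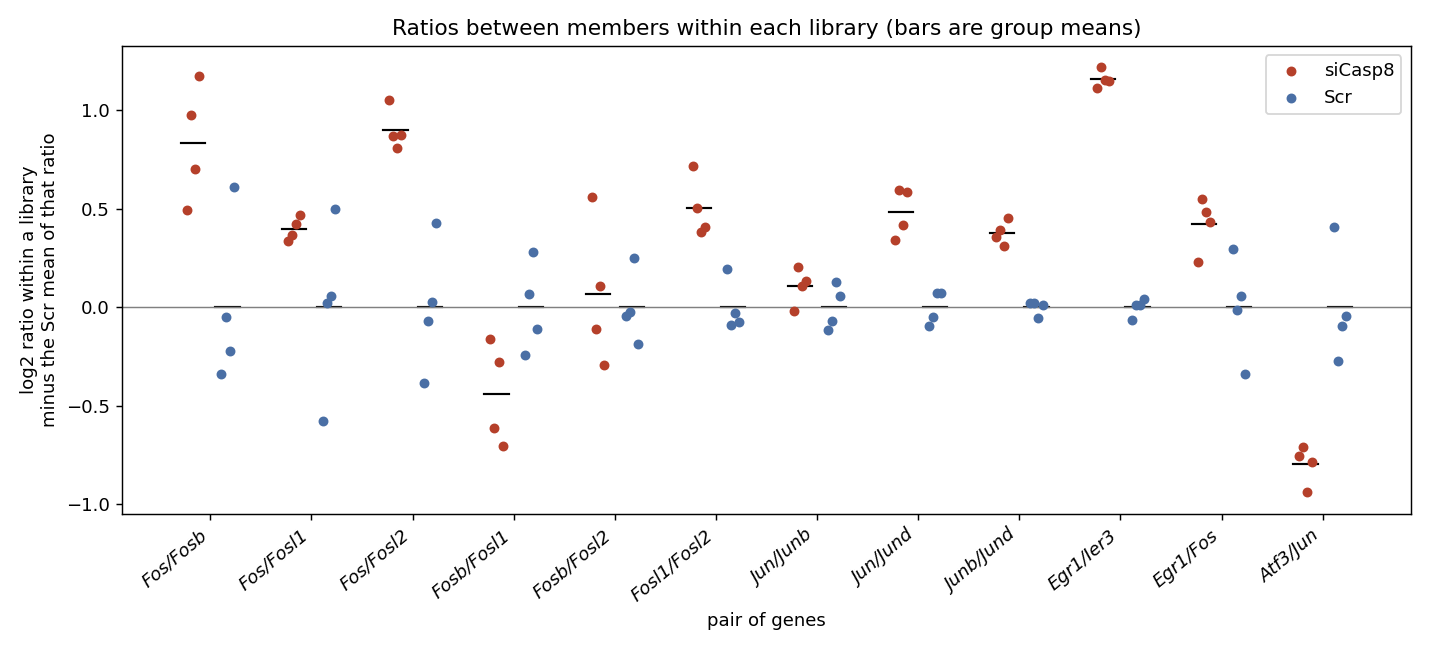
Log2 ratio of 2 genes within each library, minus the Scr mean of that ratio (vertical axis), for 12 pairs, with siCasp8 libraries in red on the left and Scr libraries in blue on the right of each pair. Black bars are group means. Egr1/Ier3 shows the widest gap (1.16), and Jun/Junb and Fosb/Fosl2 show groups that overlap.

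Other bZIP factors, the possible partners and rivals of AP-1, changed in both directions. Of 27 listed, 23 were tested, with 6 higher, 4 lower and 13 without a call, and with a median log2 fold change of -0.03. Of all tested genes 19.4% were called higher and 20.8% lower, and no set test was run on this or the later lists. Maf, a large Maf factor, rose to 5755 ± 239 in siCasp8, against 3914 ± 142 in Scr (0.56), and Bach1, a repressor of oxidative stress genes, rose by 0.33. Creb5 fell to 712 ± 55.0 in siCasp8, against 1172 ± 64.4 in Scr (-0.72), and Atf2, a bZIP factor that pairs with Jun, fell by 0.31. The limma adjusted p of these 4 genes was at most 0.000167.

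Other immediate early genes changed in both directions. Of 40 listed, 38 were tested, and 8 were higher, 17 lower and 13 not called, with a median log2 fold change of -0.15. The shares over all tested genes were 19.4% higher and 20.8% lower. After upper quartile scaling 10 were higher and 11 lower, and with the depth covariate 2 were higher and 8 lower. Ccn1, whose secreted product binds integrins in the matrix, fell to 5653 ± 368 in siCasp8, against 10315 ± 856 in Scr (-0.87). Zfp36l1, which encodes a protein that speeds decay of AU-rich transcripts, fell by 0.42, while its relative Zfp36 rose by 0.35 and Ccn2 rose by 0.27. The limma adjusted p of these 4 genes was at most 0.000194.

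Upstream, genes of the EGF family mostly rose while their main receptor fell. Of 10 listed ligands and receptors, 9 were tested, with 6 higher, 2 lower and a median log2 fold change of 0.37. Over all tested genes 19.4% were higher and 20.8% lower. The ligand gene Btc rose to 505 ± 57.3 in siCasp8, against 285 ± 16.4 in Scr (0.82), and the receptor gene Erbb2 rose by 0.19 (limma adjusted p at most 0.00118). Egfr fell to 21949 ± 769 in siCasp8, against 29071 ± 1395 in Scr (-0.40), and the ligand gene Hbegf fell by 0.23 (limma adjusted p at most 0.000793). With the depth covariate Erbb2 and Hbegf were not called (limma adjusted p = 0.0842 and 0.121), and 3 of the list were higher and 1 lower.

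In the kinase cascade between those receptors and the nucleus, log2 fold changes ran from -0.28 to 0.19. Of 29 tested genes, 3 were higher, 6 lower and 20 not called, with a median log2 fold change of 0.01. Beside these stand 19.4% of all tested genes called higher and 20.8% called lower, and no set test was run. The exchange factor gene Sos1 fell by 0.22, and the kinase genes Araf and Mapk3 (which encodes ERK1) rose by 0.19 and 0.17 (limma adjusted p at most 0.000897). The split turned with scaling, to 11 higher and 2 lower after upper quartile scaling, where 72.9% of all calls were higher. Transcripts say nothing of how active these kinases were.

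Among SRF and ETS factors, which bind the promoters of immediate early genes, 4 of 15 were higher and 5 lower. These counts stand beside 19.4% of all tested genes called higher and 20.8% called lower. Etv5, an ETS factor gene known as a target of ERK signalling, rose to 1035 ± 50.4 in siCasp8, against 497 ± 11.8 in Scr (1.06, limma adjusted p = 5.67e-08). Elf3, an epithelial ETS factor gene, rose by 0.53, while Ets1 and Etv6, ETS factor genes too, fell by 0.40 and 0.35 (limma adjusted p at most 9.85e-05). After upper quartile scaling 3 were lower, as with the depth covariate.

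Feedback inhibitors of these pathways changed in both directions. Of 19 tested, 5 were higher, 5 lower and 9 not called, beside 19.4% of all tested genes called higher and 20.8% called lower. Dusp1, which encodes a phosphatase of JNK, p38 and ERK and is an immediate early gene itself, fell to 397 ± 34.5 in siCasp8, against 957 ± 84.2 in Scr (-1.27, limma adjusted p = 2.46e-07). Dusp16, a phosphatase gene whose product acts on JNK, fell by 0.57. Spry4, which encodes an inhibitor of receptor signalling to ERK, rose to 201 ± 19.4 in siCasp8, against 92.9 ± 13.1 in Scr (1.11, limma adjusted p = 2.67e-05). Nab1, which encodes a corepressor that binds Egr1, rose by 0.28. Its relative Nab2, and the ERK phosphatase genes Dusp5 and Dusp6, all chosen after their values were seen, rose by 0.31, 0.26 and 0.19 (limma adjusted p at most 0.00376), and Nab2 and Dusp6 were not called with the depth covariate (limma adjusted p = 0.0771 and 0.0816). Dusp10, Errfi1 and Dusp8 of the same list, also named after their values were seen, fell by 0.60, 0.45 and 0.41 (limma adjusted p at most 0.00588). Dusp4, Spry1 and Spry2 were among the 9 not called. After upper quartile scaling 9 of the list were higher.

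Textbook AP-1 target genes changed in both directions. Of 28 listed, 23 were tested, and 5 were higher, 7 lower and 11 not called, with a median log2 fold change of -0.06. For all tested genes the shares were 19.4% higher and 20.8% lower. Plau, the urokinase gene, fell to 302 ± 11.1 in siCasp8, against 523 ± 14.8 in Scr (-0.79), and the chemokine gene Ccl2 fell by 0.76. Gclc, a glutathione synthesis gene, rose to 27706 ± 1536 in siCasp8, against 17454 ± 256 in Scr (0.67), and the angiogenic factor gene Vegfa rose by 0.54. The limma adjusted p of these 4 genes was at most 4.75e-06.

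**Figure D4:**
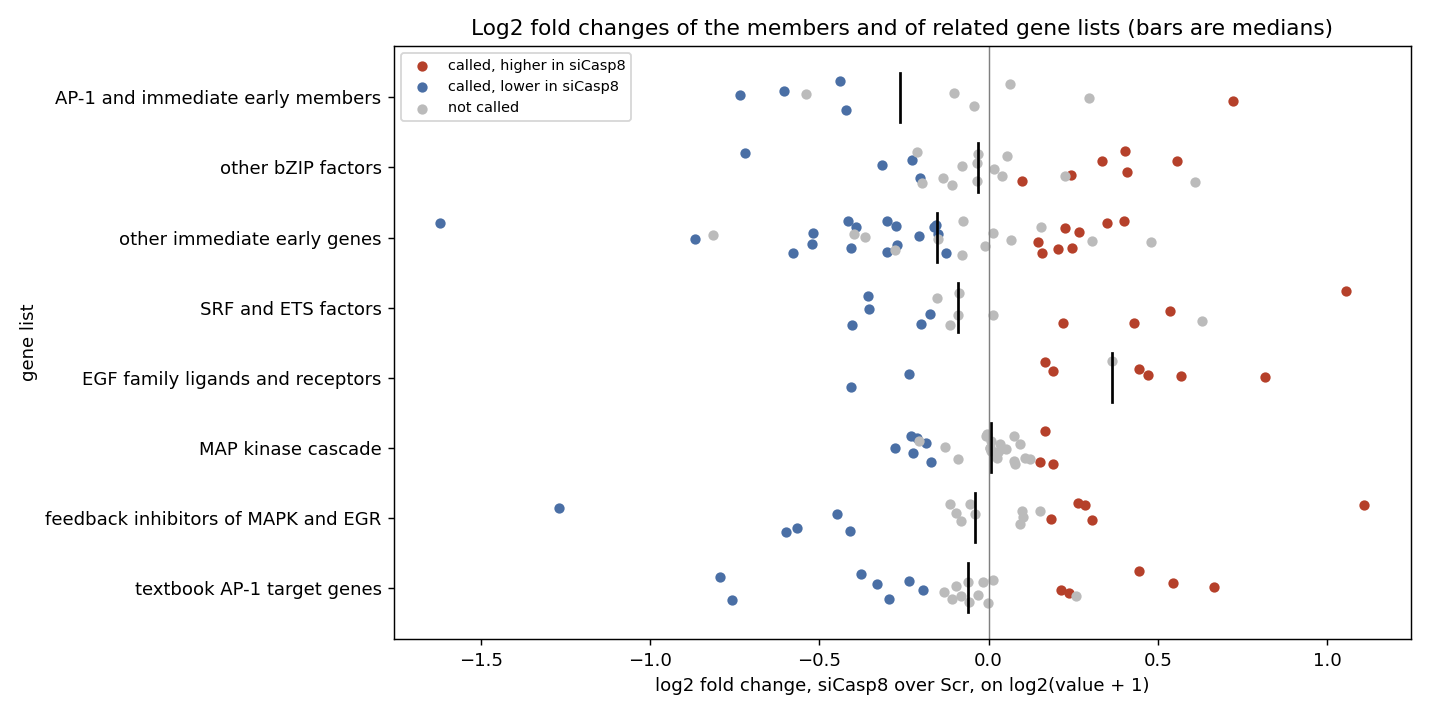
Log2 fold change of siCasp8 over Scr (horizontal axis) for the 10 genes and for each tested gene of the 7 related lists (rows). Red points were called higher, blue points lower and grey points were not called, and black bars are medians. The EGF family row has the highest median (0.37) and the row of the 10 genes the lowest (-0.26).

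The genes whose pattern over the 8 libraries lay nearest to a member were found from the root mean square difference of centred log2(value + 1). For Egr1 these were Slc27a1 (0.05), Fcgrt (0.05) and Proc (0.06), which encode a fatty acid transporter, the neonatal Fc receptor and the plasma anticoagulant protein C. For scale, the root mean square of Egr1 about its own mean was 0.37. The log2 fold changes of these 3 genes, 0.77, 0.74 and 0.71, lie near the 0.72 of Egr1. Their nearness thus largely repeats a like difference between the groups. For Atf3 the nearest were Ankle1 (0.09), Trip13 (0.09) and Mcm3 (0.10), against 0.40 for Atf3 itself, and Mcm3 encodes a subunit of the replication helicase. The same limit holds here, with log2 fold changes of -0.78, -0.72 and -0.76 beside the -0.73 of Atf3. For Fos, whose own root mean square was 0.26, the nearest were Aasdh (0.11), Tef (0.11) and Mri1 (0.12). For Jun, at 0.09, they were Arfip2 (0.03), Dctn3 (0.04) and Yipf2 (0.04).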

How the data were processed

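Poly-A RNA of 8 AML12 cultures was sequenced with Illumina TruSeq libraries, per the labels' protocols. Per the submitters' processing notes, the tools were kallisto 0.44.0, bcl2fastq 2.19, DESeq2 and sleuth, and GRCm38 and GRCh38 were the builds, in roles left unsaid. Each value deposited by the authors is a signal: kallisto estimates per gene, normalized with DESeq2 per the table's name. How transcripts were annotated, stranded and summed is not given in the sources used here. A row without a symbol (0.0481% to 0.0631% of each library) was left out.

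The value of 1 read was taken as the commonest low value of a library. Among values of at most 20.5 reads, 63.0% to 75.0% came within 0.1 of a whole read, so reads were not recovered and no count model was run. Genes with a mean of at least 10 were tested with limma 3.58.1 in R 4.3.3 (two-sided, trended prior, no covariate) on log2(value + 1), a scale that understates changes of low genes. The test was checked on simulated data. Alternatives were 2 pseudocounts, 2 filters, 3 scalings, 2 priors, a depth covariate, a replicate block, the median coding transcript length and leaving out each library. Gene positions and lengths come from GENCODE M21 on GRCm38. The members and lists were chosen with earlier results of these data known. Besides the members and Casp8, from each list the 2 genes called higher and the 2 called lower with the lowest adjusted p, the most abundant gene of each marker list and the 3 nearest patterns of Fos, Jun, Egr1 and Atf3 were to be named; 1 gene that this rule names is not reported here. The 4 cultures per group are biological replicates by the design text.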

Additional observations from a re-analysis of the deposited data

Results flagged for a closer look

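Ier3 in siCasp8 replicate 4, at 4144, lay apart from the other 3 siCasp8 libraries, which were between 3812 and 3840. Its gap to the nearest of them was 0.914 of the range of the group, past Dixon's critical value at the 95% level. It was the only group flagged of 22 tested, where chance flags about 1 in 20, and the library was still below every Scr library.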

How the results depend on the processing

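Egr1, Fosl2, Jund, Atf3 and Ier3 kept their direction and their call under all 19 alternatives, with log2 fold changes of 0.65 to 0.82, -0.66 to -0.50, -0.45 to -0.32, -0.80 to -0.63 and -0.47 to -0.34. Casp8 ranged from -1.47 to -1.39 when each library was left out. With the depth covariate Fos (-0.0544), Fosl1 (0.0893), Jun (-0.0296) and Junb (0.0100) reversed, and Junb also reversed after upper quartile scaling (0.0569), under quantile normalization (0.0127) and without Scr replicate 2 (range over left-out libraries -0.0939 to 0.0038). The cause was not tested.

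The count of members higher was 2 after upper quartile scaling (Jun added), and 1 to 2 when each library was left out (Fos added without Scr replicate 4). Members lower numbered 4 to 5 when each library was left out, and 5 under quantile normalization and with no trend in the prior variance (Fosb added each time). Of all genes, 4471 were higher and 1665 lower after upper quartile scaling, 1206 and 1409 with the depth covariate, and 2262 to 2765 and 2537 to 2978 when each library was left out, against 2739 and 2950. With the depth covariate 2 other bZIP factors were lower, 2 other immediate early genes higher and 8 lower, 3 SRF and ETS factors lower, 3 EGF family genes higher and 1 lower, 2 kinase cascade genes lower, 3 feedback inhibitors higher, and 3 AP-1 targets higher and 3 lower. After upper quartile scaling 11 other immediate early genes and 3 SRF and ETS factors were lower, 11 kinase cascade genes higher and 2 lower, and 9 feedback inhibitors higher. Under quantile normalization 6 kinase cascade genes were higher. With no trend in the prior variance 3 kinase cascade genes and 3 SRF and ETS factors were lower. When each library was left out, the lower SRF and ETS factors numbered 3 to 5 and the higher kinase cascade genes 2 to 4.

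Ratio differences with 1 library left out ranged from 1.14 to 1.18 for Egr1/Ier3, 0.77 to 1.04 for Fos/Fosl2, 0.43 to 0.57 for Fosl1/Fosl2, 0.45 to 0.53 for Jun/Jund, 0.35 to 0.40 for Junb/Jund, -0.89 to -0.66 for Atf3/Jun, 0.31 to 0.52 for Egr1/Fos, 0.72 to 1.04 for Fos/Fosb, 0.21 to 0.57 for Fos/Fosl1, -0.53 to -0.34 for Fosb/Fosl1, 0.07 to 0.15 for Jun/Junb and -0.10 to 0.19 for Fosb/Fosl2, which reversed to -0.10 without siCasp8 replicate 1. Without Scr replicate 1, 7 ratios passed 0.05 (adjusted exact permutation p = 0.049), and without Scr replicate 4, 8 did (0.0429). These adjusted values turn on how many pairs reached the smallest p, and tell nothing of a single pair.

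Replicate numbers were not a shared source in the labels, and the deviations of same-numbered libraries correlated by 0.0442 to 0.169, although each library correlated best with its own number. With the replicate block 2868 genes were higher and 3152 lower, and the calls of the 10 members were unchanged. In the exact permutation of paired ratios, 4 pairs allow no p below 0.125. Depth limits Fosb most, at 32.7 to 51.4 estimated reads.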
